A study of Mus musculus with 6 samples.

Results

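The netrins and Slits are secreted guidance ligands, and 10 of the genes that encode them and their receptors were followed through the embryonic mouse cardiac outflow tract (OFT). These were the ligand genes *Ntn1*, *Ntn4*, *Slit2* and *Slit3*, the netrin receptor genes *Dcc*, *Neo1* and *Unc5b*, and the Roundabout receptor genes *Robo1*, *Robo2* and *Robo4*. They were chosen by name, and all 10 were found by Ensembl identifier among the 28777 genes listed and were among the 28157 genes with enough reads to be tested. RNA-Seq compared E13.5 OFTs from embryos labelled *Notch1*+/-; *Nos3*-/- (mutant, n = 3 libraries) with OFTs from embryos labelled wildtype (n = 3 libraries), which the study describes as littermates. Both alleles come from knockout strains kept on a C57/BL6J background, so they are not limited to a cell type, and 3 OFTs were pooled for each library, so 18 OFTs were used in all. Each OFT was cut below the conal cushions, and the study asked which genes of this tissue differ in a model with later OFT malformations.

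A gradient of a guidance ligand can attract or repel a migrating cell or growing vessel, depending on the receptor the cell carries. Netrins bind DCC and neogenin, which can mediate attraction, and receptors of the UNC5 family, which mediate repulsion, and UNC5B is the family member best known from endothelium. Slits bind ROBO1 and ROBO2, and loss of Slit or Robo genes in mice is known to disturb the septa, valves and caval veins of the heart. ROBO4 is a Roundabout receptor largely restricted to endothelium, and it binds UNC5B.

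The 2 Slit genes each carry a microRNA gene in an intron, on the same strand as the host (GRCm38.p6, RefSeq): *Mir218-1* at chr5:48223942-48224051 in *Slit2* and *Mir218-2* at chr11:35616816-35616925 in *Slit3*. The 5p products of both hairpins are identical and the 3p products are not, which is shown here because the unspliced RNA of either host carries the same 5p sequence. Capitals mark the seed, bases 2 to 8. The count table lists genes and not mature miRNAs, so none of these was measured.
miR-218-5p, from both hairpins: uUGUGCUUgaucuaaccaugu
miR-218-1-3p, from *Slit2*: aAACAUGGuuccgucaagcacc
miR-218-2-3p, from *Slit3*: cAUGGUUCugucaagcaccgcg

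Notch signalling reaches DNA through RBPJ, whose motif has the core TGGGAA, and promoters are shown for this reason. They are those of *Unc5b*, *Robo1* and *Robo2*, which each passed some of the alternative fits below. That of *Ntn4*, which passed none but holds the motif, is shown too. RefSeq promoter windows of 250 bases before to 50 after a start were used for 8 of the 10 genes, at 10 starts (GRCm38.p6). *Ntn1* had no entry, and no window of *Dcc* was searched. TGGGAA was searched on both strands, with no other motif, and occurred in 2 of the 10 windows, in *Ntn4* and in the farthest of 3 *Robo2* starts, against 25.6% of 32851 promoter windows of the same length. The match describes letters and no binding was measured. Each window is written along the gene's own strand with a match in capitals. The first *Robo2* window lies outside the transcripts of the gene annotation used for lengths, and the second is at the annotated gene start. The *Robo1* window lies inside the annotated gene, far from its start at 72308306. The *Ntn4* window also lies inside the annotated gene, shortly after its start at 93640681.
*Ntn4*, chr10:93640799-93641098, plus strand: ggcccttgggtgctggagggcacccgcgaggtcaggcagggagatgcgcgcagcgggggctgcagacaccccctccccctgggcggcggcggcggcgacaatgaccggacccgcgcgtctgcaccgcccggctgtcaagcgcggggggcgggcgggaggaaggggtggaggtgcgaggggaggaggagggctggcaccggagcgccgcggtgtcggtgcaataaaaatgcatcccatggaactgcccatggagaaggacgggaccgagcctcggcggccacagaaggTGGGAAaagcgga
*Robo2*, chr16:75447244-75447543, minus strand: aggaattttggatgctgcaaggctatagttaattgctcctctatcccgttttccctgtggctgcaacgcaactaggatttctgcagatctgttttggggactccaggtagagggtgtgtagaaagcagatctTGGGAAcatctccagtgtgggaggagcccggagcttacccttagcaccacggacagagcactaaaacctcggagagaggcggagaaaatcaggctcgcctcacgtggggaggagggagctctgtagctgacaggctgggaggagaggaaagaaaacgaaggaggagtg
*Robo2*, chr16:74411776-74412075, minus strand: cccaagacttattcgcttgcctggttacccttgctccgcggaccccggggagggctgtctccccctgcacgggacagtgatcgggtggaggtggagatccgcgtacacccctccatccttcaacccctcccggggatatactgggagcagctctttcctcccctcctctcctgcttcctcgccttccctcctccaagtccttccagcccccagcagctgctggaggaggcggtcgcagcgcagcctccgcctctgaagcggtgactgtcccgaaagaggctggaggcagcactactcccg
*Robo1*, chr16:72662899-72663198, plus strand: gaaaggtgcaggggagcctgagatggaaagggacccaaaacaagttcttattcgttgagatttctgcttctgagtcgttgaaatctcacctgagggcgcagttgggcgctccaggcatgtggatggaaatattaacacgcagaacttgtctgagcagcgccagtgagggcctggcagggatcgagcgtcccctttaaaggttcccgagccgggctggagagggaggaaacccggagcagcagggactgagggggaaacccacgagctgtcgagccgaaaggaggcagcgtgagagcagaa
*Unc5b*, chr10:60831532-60831831, minus strand: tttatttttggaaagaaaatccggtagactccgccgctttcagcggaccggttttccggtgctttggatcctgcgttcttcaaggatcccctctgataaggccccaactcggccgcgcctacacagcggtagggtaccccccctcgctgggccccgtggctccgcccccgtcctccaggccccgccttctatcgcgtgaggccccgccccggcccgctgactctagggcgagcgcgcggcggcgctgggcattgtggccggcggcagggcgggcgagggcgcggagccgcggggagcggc

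Depth was between 34729103 and 44387490 counts per library. Levels are given as CPM, a gene's share of its library's counts after scaling by edgeR's TMM. The targeted genes did not both follow their label. *Nos3* was lower in each mutant library, at 22.1, 22 and 20.4 CPM against 31.8, 47.2 and 48.1 CPM. Its log2 fold change was -0.98 ± 0.15 (SE, edgeR's quasi-likelihood F test, Benjamini-Hochberg adjusted p = 0.128), which did not pass. *Notch1* was higher, at 155, 161 and 139 CPM against 74.3, 88.2 and 83.6 CPM. Its log2 fold change was 0.89 ± 0.10 (SE, same test, adjusted p = 0.0313). Mutant and wildtype are therefore used below as the libraries' labels, and every direction is a direction between labels. Wildtype replicates 2 and 3 cannot be numbered with certainty, because the titles and descriptions of these samples exchange their library numbers; the numbers of the titles are used. The libraries also differed in tissue markers. The summed level of 8 Myocardial markers was 23270 to 32955 CPM under the wildtype label and 16136 to 22786 CPM under the mutant label, without overlap and with 8 of 8 genes lower on the mean, and none of them passed the test. The summed level of 6 Mesenchymal markers was 4811 CPM in wildtype replicate 1 but 3043 and 2539 CPM in replicates 2 and 3, against 4580 to 5308 CPM in the mutant libraries. That of 5 Neuronal markers was 11.1 to 22.1 CPM under the wildtype label and 25.5 to 33.5 CPM under the mutant label, without overlap. All 5 Neuronal genes were higher on the mean under the mutant label, and none passed the test.

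Levels per length put *Unc5b* far above the other genes and *Dcc* far below them. Under the wildtype label *Unc5b* had 43.6 ± 7.47 CPM per kilobase of exon (SD, n = 3) and *Dcc* had 0.0846 ± 0.00643 (SD, n = 3). *Neo1*, at 16.1 ± 2.51, and *Ntn4*, at 16.0 ± 4.06, followed *Unc5b*, and then *Ntn1*, *Robo1* and *Slit3*, at means of 9.65, 7.24 and 6.39 CPM per kilobase, and *Slit2*. From *Neo1* down to *Slit2* each gene's range over libraries overlapped that of its neighbour in this order. *Robo4*, at 2.85 ± 0.659, and *Robo2*, at 2.18 ± 1.43, overlapped each other and lay below *Slit2*. Under the mutant label *Unc5b* and *Dcc* kept the ends of the order, *Robo1*, at 9.78 ± 0.456, lay apart from its neighbours, and *Ntn1* was in the seventh place, at 3.72 ± 2.62. The middle of the order depended on the length used: per kilobase of the longest transcript the wildtype level of *Slit2* was 12.8 CPM, above the 7.42 CPM of *Slit3*, because the union of all annotated exons is 25433 bases long for *Slit2* and its longest transcript 9960 bases.

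**Figure D1:**
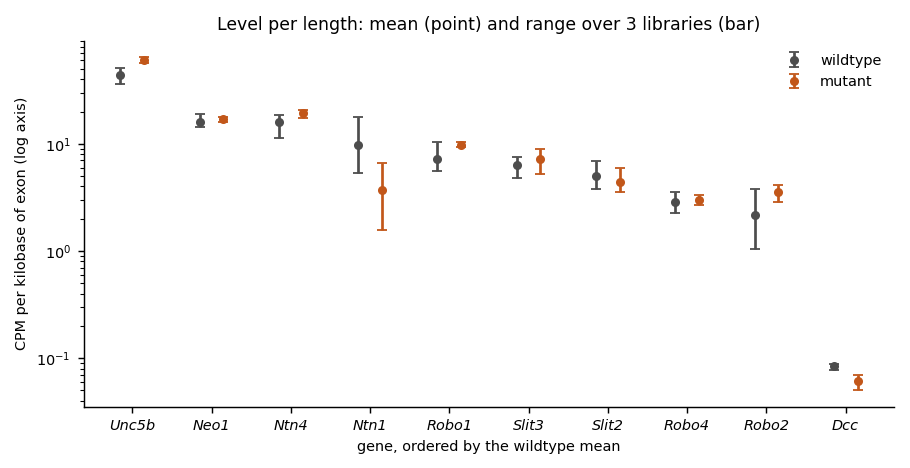
Mean level (points) and range over 3 libraries (bars) of the 10 genes in CPM per kilobase of the union of exons, on a log axis, for the wildtype and mutant labels, with genes ordered by the wildtype mean. *Unc5b* is highest and *Dcc* lowest under both labels, and the bars of *Ntn1* and of wildtype *Robo2* are the longest.

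The comparison of the labels asked whether any of these genes differed at E13.5. None of the 10 passed edgeR's quasi-likelihood F test after Benjamini-Hochberg adjustment over all genes, where 0.0213% of genes tested passed (6 of 28157), and 2 of the 10 had an unadjusted p under 0.05, beside 16.1% of all genes. With the replicate number of the titles as a block, 4 of the 10 passed, *Unc5b*, *Robo1* and *Robo2* higher and *Ntn1* lower, against 5.60% of all genes. The block treats equal numbers as pairs, and no label says that they mark a shared litter or day. With the numbers of the descriptions as the block 0 of the 10 passed (edgeR), against 0.295% of all genes. In that fit 4 of the 10 had an unadjusted p under 0.05 (edgeR), beside 3653 of 28157 genes. Each blocked call below therefore rests on the numbering of wildtype replicates 2 and 3. DESeq2's Wald test called 1, *Unc5b*, against 4.21% of the 17781 genes it gave an adjusted p. Between the labels 7 of the 10 had a higher and 3 a lower fitted level, with a median log2 fold change of 0.13 beside 0.01 over all genes. In bulk tissue fewer cells of a type and less RNA per cell cannot be told apart.

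**Figure D2:**
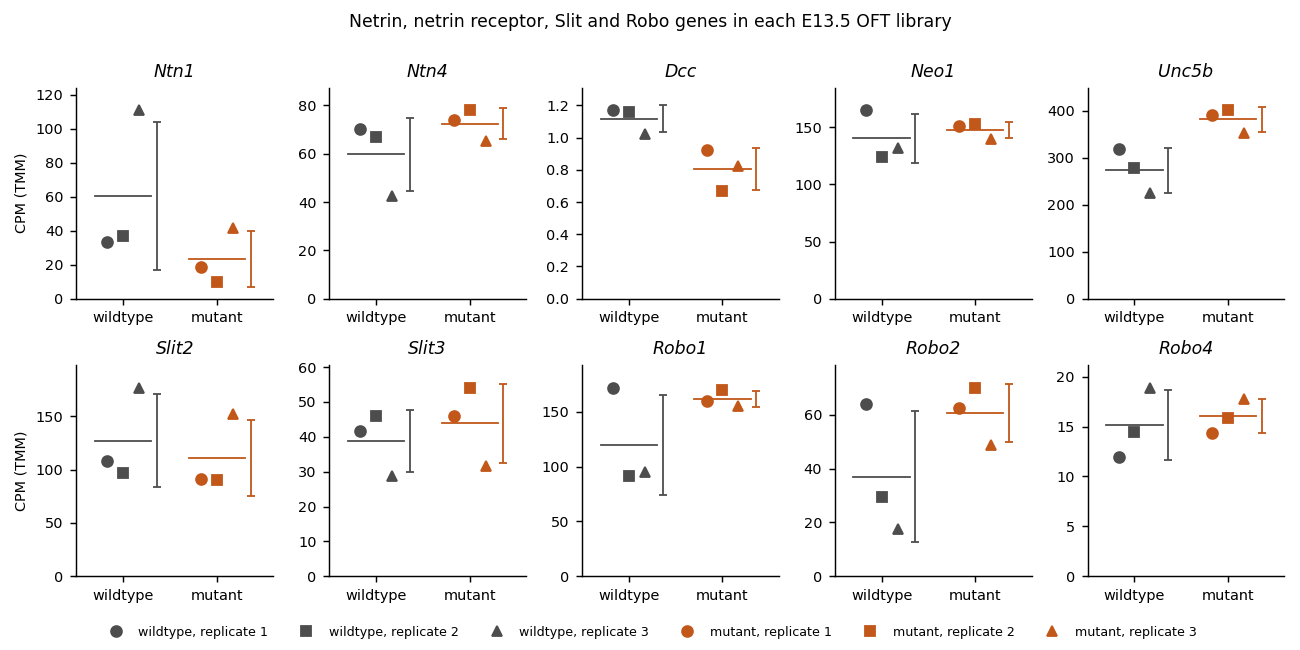
CPM scaled by TMM of the 10 genes in each library, with 1 panel per gene and an axis from 0; the symbols are the replicate numbers of the titles, horizontal lines are group means and bars are the SD (n = 3). The labels do not overlap for *Unc5b* and *Dcc*, and wildtype replicate 3 stands high for *Ntn1*.

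*Ntn1*, which encodes netrin-1, the founding secreted netrin, spread most among the 10 genes. It had 33.4, 37.0 and 111 CPM in wildtype replicates 1, 2 and 3 and 18.7, 9.77 and 41.6 CPM in the mutant replicates. The third replicate was the highest under both labels, and mutant replicate 3 lay above wildtype replicates 1 and 2, so the labels overlapped. The log2 fold change was -1.37 ± 0.52 (SE; edgeR, adjusted p = 0.256), and the SD within labels was 0.99 on the log2 scale. Between libraries of the same number the mutant level was lower 3 of 3 times, by log2 differences of -0.82, -1.87 and -1.41. With the replicate block, which assumes that equal numbers are pairs, *Ntn1* fell under the mutant label. Its log2 fold change was then -1.38 ± 0.15 (SE, edgeR, adjusted p = 3.95e-05). That call needed the numbers of the titles: with those of the descriptions the adjusted p was 0.195 (edgeR). Without wildtype replicate 3 the log2 fold change was -0.59, and without mutant replicate 3 it was -2.09.

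Among the 5 genes whose log2 levels over the 6 libraries lay nearest to *Ntn1* were *Cited1*, *Ednrb*, *Gm15543* and *Slc16a12*, by the root mean square difference of deviations from each gene's mean, out of 16654 genes. *Cited1*, a transcriptional coregulator gene, differed by 0.231, with 62.3, 83.6 and 223 CPM in the wildtype and 43.6, 30.4 and 109 CPM in the mutant libraries. *Ednrb*, an endothelin receptor gene, differed by 0.335. These points share their libraries, tissue pieces and depth, and the likeness is a description. The atrial natriuretic peptide gene *Nppa*, on the list of Ventricular myocardial markers, was also highest in the third replicates, at 42.9, 34.8 and 212 CPM against 25.7, 7.84 and 130 CPM. The 6 genes of that list summed to 6049 to 11524 CPM in the wildtype and 3671 to 6150 CPM in the mutant libraries, and 6 of 6 were lower on the mean with none past the test. With the mean of the Myocardial markers as a covariate the log2 fold change of *Ntn1* was 0.47 (edgeR, adjusted p = 0.716). The summed Myocardial markers did not overlap between labels, so this covariate and the label cannot be fully told apart. Of the 7 markers of foregut and lung epithelium *Krt8* was at 8.75 to 13.2 CPM and made up most of the list's sum. *Nkx2-1* and *Foxa2* had 5 reads each over all libraries, *Shh* was not among the genes tested, and *Epcam* was at most 0.555 CPM in any library.

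*Ntn4*, a netrin gene of basement membranes, had 70.1, 66.9 and 42.4 CPM in the wildtype and 73.9, 78.0 and 65.4 CPM in the mutant libraries. Only wildtype replicate 3 stood clearly below the others, and the labels overlapped by the lowest mutant library. The log2 fold change was 0.27 ± 0.17 (SE; edgeR, adjusted p = 0.44). *Ntn4* overlaps a processed pseudogene on the other strand, *Gm8580*, at 9.19 CPM, and 2 antisense genes under 0.2 CPM; the kit was stranded but the strand setting of the counting was not given in the sources used here.

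*Unc5b*, the repulsive netrin receptor gene, was higher in each mutant library than in each wildtype library. Its levels were 318, 277 and 224 CPM in the wildtype and 391, 401 and 352 CPM in the mutant libraries. Of all genes 19.6% had labels that did not overlap, and of the 10 genes 2 did, *Unc5b* and *Dcc*. The log2 fold change was 0.48 ± 0.13 (SE; edgeR, adjusted p = 0.194). *Unc5b* rose under the mutant label in DESeq2's Wald test (adjusted p = 0.0238) and with the replicate block (0.49 ± 0.11, SE; edgeR, adjusted p = 0.0124), but not with the descriptions' numbers (edgeR, adjusted p = 0.157). The gaps between libraries of the same number were 0.30, 0.53 and 0.65 on the log2 scale, higher 3 of 3 times. The exact two-sided permutation test gave p = 0.1, the smallest that 3 libraries against 3 allow.

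*Dcc* and *Neo1* encode the netrin receptors of the other class. *Dcc* rested on 25 to 52 counts per library. Its levels were 1.17, 1.16 and 1.02 CPM in the wildtype and 0.925, 0.667 and 0.822 CPM in the mutant libraries, without overlap, and the log2 fold change was -0.47 ± 0.30 (SE; edgeR, adjusted p = 0.457). *Neo1* encodes neogenin, which is also a receptor for repulsive guidance molecules. It had 165, 124 and 132 CPM in the wildtype and 151, 153 and 140 CPM in the mutant libraries, and wildtype replicate 1 was the highest of all. Its log2 fold change was 0.08 ± 0.12 (SE; edgeR, adjusted p = 0.802), the smallest of the 10 genes.

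The Slit ligand genes spread more within labels than between them. *Slit2* had 108, 96.5 and 177 CPM in the wildtype and 91.2, 90.1 and 152 CPM in the mutant libraries. *Slit3* had 41.6, 45.9 and 28.8 CPM in the wildtype and 45.9, 54.1 and 31.7 CPM in the mutant libraries. The third replicates were thus the highest 2 libraries for *Slit2* and the lowest 2 for *Slit3* under the numbers of the titles. Within labels *Slit2* spanned 1.83-fold and 1.69-fold, and *Slit3* 1.59-fold and 1.71-fold, in the wildtype and mutant libraries. The log2 fold change between labels was -0.19 ± 0.24 for *Slit2* and 0.18 ± 0.20 for *Slit3* (SE; edgeR, adjusted p = 0.737 and 0.71). The replicate block narrowed the SE to 0.11 and 0.10, and neither gene passed (edgeR, adjusted p = 0.36 and 0.415).

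*Robo1* and *Robo2*, the main Slit receptor genes, were low in wildtype replicates 2 and 3 only. *Robo1* had 172, 91.1 and 95.5 CPM in the wildtype and 160, 170 and 155 CPM in the mutant libraries. *Robo2* had 64.2, 29.4 and 17.6 CPM in the wildtype and 62.7, 70.1 and 48.9 CPM in the mutant libraries. Wildtype replicate 1 lay above the mutant range for *Robo1* and within it for *Robo2*, so the labels overlapped. The log2 fold changes were 0.43 ± 0.21 for *Robo1* and 0.70 ± 0.35 for *Robo2* (SE; edgeR, adjusted p = 0.332 and 0.353). With the replicate block both rose under the mutant label, by 0.50 ± 0.14 and 0.89 ± 0.19 on the log2 scale (SE; edgeR, adjusted p = 0.0482 and 0.0071), although the libraries of number 1 differed by only -0.10 and -0.03 and the rise came from numbers 2 and 3, at 0.89 and 0.69 for *Robo1* and 1.24 and 1.45 for *Robo2*. With the numbers of the descriptions neither passed (edgeR, adjusted p = 0.199 and 0.13). Without wildtype replicate 1 the 3 genes *Unc5b*, *Robo1* and *Robo2* passed, at log2 fold changes of 0.61, 0.79 and 1.36 (edgeR, adjusted p = 0.0196, 0.00506 and 0.0184), but so did 9.45% of 27450 genes.

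The 5 genes nearest to *Robo2* over the libraries were *Cthrc1*, *Tnc*, *Dkk3*, *Thbs1* and *Antxr1*, with root mean square differences of 0.0298 to 0.0802 on the log2 scale out of 16654 genes. *Cthrc1*, a secreted collagen triple helix protein gene, had 79.6, 37.9 and 22.5 CPM in the wildtype and 81.0, 93.2 and 63.1 CPM in the mutant libraries. *Tnc*, which encodes the matrix glycoprotein tenascin-C, had 462, 208 and 116 CPM against 453, 463 and 321 CPM. The gene nearest to *Robo1*, looked up after the values were seen, was *Vcan*, a proteoglycan gene of the endocardial cushions and a Mesenchymal marker, at a difference of 0.0185. All 6 Mesenchymal markers were higher on the mean under the mutant label, with a median log2 fold change of 0.59 and none past the test, and their sums given above follow the same libraries as *Robo1* and *Robo2*. The part of tissue makeup in the levels of *Ntn1*, *Robo1*, *Robo2* and *Unc5b* was not tested.

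**Figure D3:**
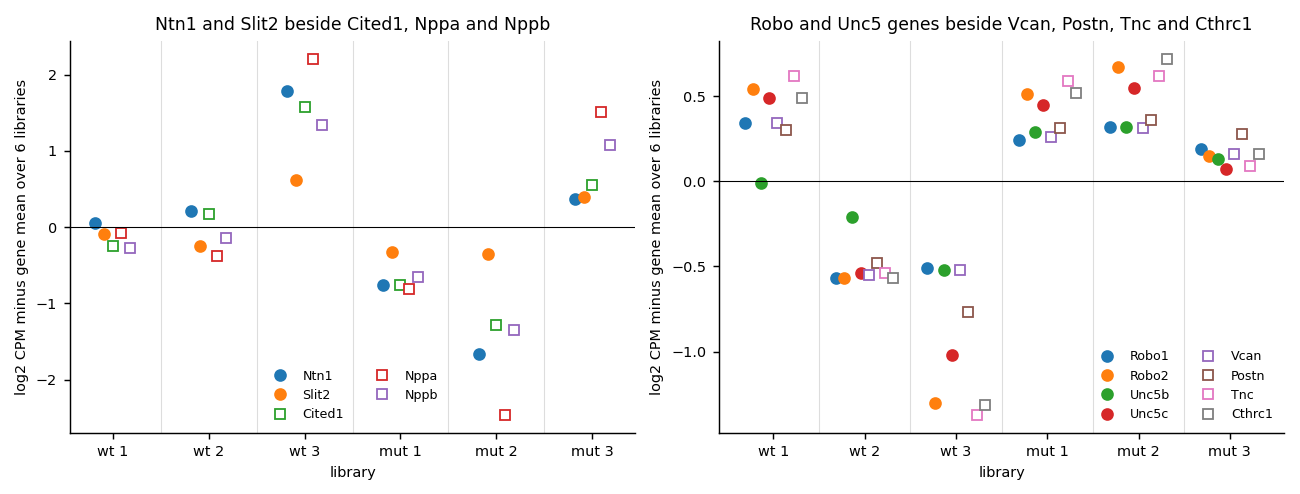
Log2 CPM of each gene minus its mean over the 6 libraries (y axis) by library (x axis; wt, wildtype; mut, mutant); filled circles are guidance genes and open squares are genes set beside them. On the left *Ntn1* and *Cited1* are highest in wildtype replicate 3, at 1.78 and 1.58; on the right *Robo2* and *Cthrc1* are lowest there, at -1.30 and -1.31.

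*Robo4*, the endothelial Roundabout gene, had 12.0, 14.5 and 18.9 CPM in the wildtype and 14.4, 15.9 and 17.8 CPM in the mutant libraries. The mutant libraries all lay within the wildtype range. The log2 fold change was 0.09 ± 0.16 (SE; edgeR, adjusted p = 0.836). The 6 Endothelial markers summed to 867, 1092 and 1152 CPM in the wildtype libraries, the same order as *Robo4*, and to 926, 913 and 1019 CPM in the mutant libraries, where the first 2 were not in the order of *Robo4*, with 0 of 6 past the test.

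**Figure D4:**
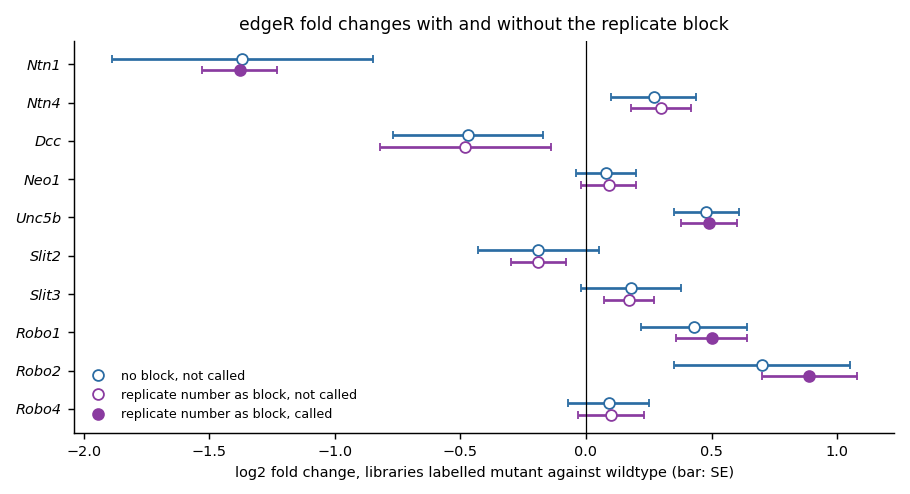
Log2 fold change of the mutant against the wildtype label (x axis; bars are the SE) for the 10 genes (y axis) in edgeR without a block and with the replicate number of the titles as a block; filled points passed an adjusted p of 0.05. The block moved estimates little, from -1.37 to -1.38 for *Ntn1* and from 0.70 to 0.89 for *Robo2*, and shortened the bars of most genes, *Ntn1* from 0.52 to 0.15.

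Of 53 other genes of the 2 pathways 52 were tested, and none passed without the block, with 10 at an unadjusted p under 0.05, beside 16.1% of all genes, and a lowest adjusted p of 0.196 (edgeR). Fitted levels were higher under the mutant label for 34 and lower for 18, with a median log2 fold change of 0.09. With the block 7 passed, 6 higher and 1 lower, against 5.60% of all genes. With the descriptions' numbers 0 passed, against 0.295% of all genes (edgeR). In that fit 12 had an unadjusted p under 0.05 (edgeR), beside 3653 of 28157 genes. DESeq2's Wald test called 0, against 4.21% of the 17781 genes it gave an adjusted p. *Ntng2*, *Ntn5*, *Unc5d*, *Slit1* and *Robo3* were among the genes it gave none, so they could not be called. In that test 11 had an unadjusted p under 0.05, beside 14.3% of all genes. The labels did not overlap for 13 of the 52, beside the 19.6% of all genes.

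Among the other netrins and netrin receptors, *Unc5c*, a second repulsive netrin receptor gene, repeated the order of *Robo2*, at 52.1, 25.2 and 17.9 CPM against 50.7, 54.2 and 38.7 CPM. Its log2 fold change was 0.59 ± 0.31 (SE; edgeR, adjusted p = 0.368), and it rose with the block (0.72 ± 0.16, SE; edgeR, adjusted p = 0.0119) but did not pass with the descriptions' numbers (edgeR, adjusted p = 0.152). *Unc5a* and *Unc5d* were low, at 2.83 to 5.61 and 0.217 to 0.55 CPM. The glycosylphosphatidylinositol-anchored netrin-G genes *Ntng1* and *Ntng2* were under 1.1 CPM in every library and did not overlap between labels, *Ntng1* at 0.308 to 0.54 against 0.80 to 1.01 CPM and *Ntng2* at 0.401 to 0.697 against 0.225 to 0.374 CPM, with log2 fold changes of 1.09 ± 0.38 and -0.90 ± 0.47 (SE; edgeR, adjusted p = 0.234 and 0.367). *Ntn5*, *Slit1* and *Robo3* were at most 0.454 CPM in any library, and *Ntn3* was not matched to a listed identifier.

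Other ligands and receptors share these binding partners. The repulsive guidance molecule genes *Rgma* and *Rgmb* encode neogenin ligands. *Rgma* had 9.63, 8.33 and 5.39 CPM against 13, 14 and 7.45 CPM, with a log2 fold change of 0.56 ± 0.25 (SE; edgeR, adjusted p = 0.318; 0.0275 with the block, 0.326 with the descriptions' numbers and 0.0683 with the block and a GC content correction), and that of *Rgmb* was 0.09 ± 0.12 (SE; edgeR, adjusted p = 0.755). *Flrt2* and *Flrt3* encode leucine-rich repeat proteins that bind UNC5 receptors, and their log2 fold changes were 0.06 ± 0.15 and 0.15 ± 0.19 (SE; edgeR, adjusted p = 0.887 and 0.743). *Igdcc4*, a relative of *Dcc*, had 52.6, 43.1 and 34.8 CPM against 59.7, 64.2 and 48.8 CPM, with a log2 fold change of 0.40 ± 0.15 (SE; edgeR, adjusted p = 0.254; 0.0293 with the block and 0.231 with the descriptions' numbers).

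Inside the cell Robo receptors act through the Slit-Robo GTPase-activating proteins. *Srgap3* had 13.4, 6.74 and 4.41 CPM in the wildtype and 19.5, 19.4 and 11.8 CPM in the mutant libraries. Wildtype replicate 1 alone reached the mutant range, as for *Robo2*. Its log2 fold change of 1.04 ± 0.34 (SE; edgeR, adjusted p = 0.221) became 1.14 ± 0.17 with the block, and it then rose (SE; edgeR, adjusted p = 0.000512), but it did not pass with the descriptions' numbers (edgeR, adjusted p = 0.0539), and with the Myocardial covariate its log2 fold change was 0.09. *Srgap1* and *Srgap2* had log2 fold changes of 0.25 ± 0.13 and 0.30 ± 0.11 (SE; edgeR, adjusted p = 0.357 and 0.252), and *Srgap2* did not overlap between labels, at 60.9 to 78.1 against 80.3 to 86.3 CPM. Of all genes 19.6% did not overlap between labels. Of the 24 intracellular partners 16 had a higher and 8 a lower fitted level. Without the block 0 passed, and 5 had an unadjusted p under 0.05 (edgeR), beside 16.1% of all genes. With the block 2 passed (edgeR), against 5.60% of all genes.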

How the data were processed

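Per the labels and the study's methods, paired-end reads of ribosomal-RNA-depleted stranded libraries were aligned to mm10 with TopHat 2.1.0 and counted on exons with GenomicAlignments. The deposited values are whole-number counts per gene, made by the authors without normalization, and no listed gene had a total under 5 in the 6 libraries. Gene positions and lengths came from the GENCODE annotation of mm10 and sequences from RefSeq tables of GRCm38.p6.

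The fits used edgeR 4.0.16, limma 3.58.1 and DESeq2 1.42.0 under R 4.3.3. Genes with more than 5 reads over all libraries were scaled by TMM, fitted without covariates and given a p by edgeR's quasi-likelihood F test, adjusted over all 28157 genes by Benjamini-Hochberg; a gene passed at 0.05 or less. Permutation tests were exact and two-sided on log2 of CPM plus 0.5. The fits were tested on simulated data. Errors cover counting and the spread between the 3 pooled libraries of a label.

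The named genes are the 10 genes, their nearest relatives and partners by role (*Ntn3*, *Ntn5*, *Ntng1*, *Ntng2*, *Unc5a*, *Unc5c*, *Unc5d*, *Slit1*, *Robo3*, *Rgma*, *Rgmb*, *Flrt2*, *Flrt3*, *Igdcc4* and *Srgap1* to *Srgap3*), *Notch1* and *Nos3*, and the 5 genes nearest in pattern, at a mean of at least 1 CPM, to *Ntn1* and to members with an SD within labels over 0.5 (log2); 1 gene that this rule names is not reported here. The members and all gene lists were chosen with earlier results of these data known.

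All 6 libraries carry the same flow cell and lane in their descriptions. The title numbers 1 to 3 occur under both labels, and no label says that they mark a shared litter or day. Deviations from the label means, over 16655 genes, correlated between libraries of the same number at r = 0.101, 0.152 and 0.458, so the block was used beside the unblocked test. The first of these is close to the limit of 0.1 set for pairing, and wildtype replicate 1 correlated more with mutant replicate 2, at 0.318. With the numbers of the descriptions the other two pairs were at -0.118 and -0.487.

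For the marker lists whose sums are not given above, ranges of summed CPM follow, in the wildtype and then the mutant libraries. Vascular smooth muscle (VSMC) markers were at 1750 to 2260 and 1580 to 1807, and Epicardial markers at 207 to 334 and 212 to 278. Blood markers were at 3050 to 6255 and 3270 to 3403. Neural crest and glia markers (without *Foxd3*, not tested) were at 21.9 to 35.9 and 30.8 to 39.8. Foregut and lung epithelium markers were at 10.6 to 14.2 and 8.99 to 11.6, and Macrophage markers at 81.7 to 121 and 81.9 to 101. None of the marker genes tested passed.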

Additional observations from a re-analysis of the deposited data

How the results depend on the processing

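Over all genes 6 were called without a block. The count was 1577 with the replicate block, 83 when the paired numbers were those of the descriptions, 2011 with the replicate block and a GC content correction, 749 by DESeq2's Wald test, 3 with a covariate for the mean of the Myocardial markers, and 1 to 2593 when each library was left out in turn, the highest without wildtype replicate 1. Of the 10 guidance genes 0 were called without a block, 4 with the replicate block, 0 with the descriptions' numbers, 4 with the block and the GC correction, 1 by DESeq2, and 0 to 3 when each library was left out, the 3 without wildtype replicate 1. Of the other pathway genes 0 were called without a block, 7 with the replicate block, 0 with the descriptions' numbers, 7 with the block and the GC correction, and 0 to 8 when each library was left out. With scaling by library size alone, which moved the all-gene median of the log2 fold change from 0.01 to 0.11, the labels did not overlap for 1 of the 10 genes instead of 2.

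With the Myocardial covariate the log2 fold change changed sign for *Ntn1* (0.47), *Ntn4* (-0.18), *Neo1* (-0.10), *Slit2* (0.55), *Slit3* (-0.49), *Robo2* (-0.23), *Unc5a* (0.61), *Unc5c* (-0.22), *Unc5d* (-0.15), *Slit1* (-0.88), *Rgma* (-0.26), *Rgmb* (-0.10), *Flrt2* (-0.29), *Flrt3* (-0.40) and *Igdcc4* (-0.04), with adjusted p of 0.697 or more (edgeR). It kept its sign but moved from 0.43 to 0.06 for *Robo1*, from 0.48 to 0.17 for *Unc5b*, from 0.09 to 0.48 for *Robo4*, from 1.04 to 0.09 for *Srgap3*, from 0.25 to 0.04 for *Srgap1* and from 0.30 to 0.12 for *Srgap2*. When each library was left out in turn it ranged across 0 for *Neo1* (-0.01 to 0.21), *Slit2* (-0.49 to 0.12), *Slit3* (0.00 to 0.36), *Robo4* (-0.06 to 0.28), *Unc5a* (-0.37 to 0.11), *Flrt2* (-0.08 to 0.25), *Flrt3* (-0.01 to 0.43) and *Slit1* (-0.70 to 0.44). *Ntn5* was at 0.06 and *Slit1* at -0.10 by limma-voom, and *Slit1* was at -0.04 with the replicate block, -0.07 with the descriptions' numbers, -0.01 with the GC correction and -0.13 with both block and GC correction. The cause of these changes was not tested. The Myocardial covariate cannot be fully told apart from the label, because the summed markers did not overlap between labels. The settings not named with a value were DESeq2's size factors, filterByExpr and no filter at all.

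Of the 10 genes 9 had 366 or more counts in every library, whereas *Dcc* had 25 to 52. Whether depth limited the calls was not tested. With 3 pooled libraries a label, *Ntn1* had an SD within labels of 0.99 on the log2 scale.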

Other observations

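The genes nearest in pattern to the members outside the naming rule were looked up after the values were seen and are given as descriptions over 6 libraries, by the root mean square difference of log2 deviations. *Unc5b* lay nearest to *Col6a1*, a collagen VI gene, at 0.0246, with 172, 152 and 124 CPM in the wildtype and 212, 222 and 200 CPM in the mutant libraries. *Robo1* lay second nearest to *Fbn2*, the fibrillin-2 gene of elastic microfibrils, at 0.0504, with 641, 369 and 347 CPM against 629, 643 and 585 CPM. The genes nearest to *Slit3* were *Kctd8*, *Gpr45* and *Dchs2*, at 0.0442, 0.0507 and 0.0627. The fourth was *Sulf1*, an extracellular heparan sulfate sulfatase gene, at 0.0683. It had 170, 174 and 114 CPM against 172, 218 and 137 CPM. The genes nearest to *Slit2* were *A830082K12Rik* and *4430402I18Rik*, at 0.0755 and 0.0866. The third was *Itga6*, a laminin-binding integrin gene, at 0.0917. It had 146, 129 and 201 CPM against 113, 107 and 199 CPM. Not all of the nearest genes of each member are given here.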
